A study of Mus musculus with 10 samples.

Results

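Processed pseudogenes are copies of spliced messenger RNAs that were reverse transcribed and inserted elsewhere in the genome. The 158 described here were selected by their gene type and level: rows of the deposited comparison typed as processed pseudogene, with a mean of at least 10 normalized counts over all libraries. They were 158 of 1515 processed pseudogenes and of 23195 genes in all. Levels are in normalized counts, read pairs given to a gene after division by a factor for the depth of the library. The level was part of the rule and is given as a description.

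The hearts were dissected at embryonic day 13.5 from male C57BL6/J embryos, 5 wild type and 5 *Nos1ap* null, and polyA RNA was sequenced as stranded pairs of 100-base reads. The null embryos were homozygous for the tm1d allele, from which exon 4 was removed in all cells with the CMV-Cre transgene, and the controls were wild type at *Nos1ap*. The deletion is constitutive, so that the hearts developed without exon 4 of *Nos1ap* from the start. The paper expects the allele to give no protein, which was not measured in these hearts. Reads of *Nos1ap* remained, as given below. The comparison asks what loss of *Nos1ap*, which encodes an adaptor of neuronal nitric oxide synthase, does to the transcriptome of the embryonic heart. As whole hearts were sequenced, fewer cells of a type and less RNA per cell cannot be told apart.

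A processed pseudogene arises when the reverse transcriptase of LINE-1 elements copies a messenger RNA. The copy carries no introns and usually lacks the promoter of its parent gene, and genes expressed strongly in the germ line, such as those of ribosomal proteins, have left the most copies. A young copy differs from its parent at few bases, so that a short read from the parent can be placed on the copy just as well. RSEM, which the authors used, divides such reads between genes by an estimate rather than leaving them out.

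The sequences below carry the main findings and are shown first. Each is from GENCODE M21 transcripts on GRCm38, the build of the deposited table, and reads 5′ to 3′ on the strand of the gene. Capitals mark bases of the pseudogene that differ from the parent, and a sequence without capitals has no difference in the stretch shown. The first set shows the single base by which *Gm10335* and *Gm10132* each differ from *Rpl23a*, a protein of the large ribosomal subunit, within 468 aligned bases. The stretch of *Gm10335* lies at chr10:14523278-14523367 on the plus strand, in an intron of *Adgrg6* that runs on the opposite strand. That of *Gm10132* lies at chr14:77252025-77252114 on the minus strand, in an intron of *Enox1* on the opposite strand. The stretch of *Rpl23a* is coding sequence at chr11:78181513-78182811 on the minus strand, and joins the end of exon 2 to exon 3. Counted from the first aligned base, the difference was C248T in *Gm10335* and C246T in *Gm10132*.
Rpl23a: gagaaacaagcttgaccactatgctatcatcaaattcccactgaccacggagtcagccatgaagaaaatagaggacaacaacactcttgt
Gm10335: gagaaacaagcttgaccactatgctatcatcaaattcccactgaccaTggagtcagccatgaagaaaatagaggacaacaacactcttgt
Gm10132: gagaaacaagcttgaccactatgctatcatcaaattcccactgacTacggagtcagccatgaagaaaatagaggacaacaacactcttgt

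The second set shows copies of *Gapdh*, the glyceraldehyde-3-phosphate dehydrogenase of glycolysis, 2 of which are identical to it and to each other. The 1002 bases of *Gm10359* and *Gm12671* had no difference from the *Gapdh* coding sequence, and *Gm12070* had 1, G361A. The stretches lie at chr11:26786953-26787042 on the plus strand for *Gm12070*, at chr5:105863293-105863382 on the minus strand for *Gm10359* and at chr4:91852260-91852349 on the minus strand for *Gm12671*. No other gene overlaps these 3 copies. The stretch of *Gapdh* is at chr6:125162952-125163139 on the minus strand and holds the last base of exon 3 and part of exon 4.
Gapdh: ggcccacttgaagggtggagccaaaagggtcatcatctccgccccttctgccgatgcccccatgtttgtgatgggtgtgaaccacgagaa
Gm12070: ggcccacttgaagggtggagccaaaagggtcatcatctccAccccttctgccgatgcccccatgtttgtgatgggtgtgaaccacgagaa
Gm10359: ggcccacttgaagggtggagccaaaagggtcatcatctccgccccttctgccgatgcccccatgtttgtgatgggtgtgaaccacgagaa
Gm12671: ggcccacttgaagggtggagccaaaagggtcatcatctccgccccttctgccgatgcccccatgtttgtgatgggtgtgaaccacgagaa

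The third set shows the start of the coding sequence of *Ndufb4*, a subunit of respiratory complex I, and of its identical copy *Gm3244*. *Gm3244* had the highest level relative to its parent. The stretch of *Gm3244* is at chr15:73809807-73809896 on the minus strand, in an intron of *Mroh5* on the same strand. That of *Ndufb4* is in exon 1 at chr16:37654270-37654359 on the minus strand.
Ndufb4: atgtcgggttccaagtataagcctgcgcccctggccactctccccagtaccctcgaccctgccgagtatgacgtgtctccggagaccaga
Gm3244: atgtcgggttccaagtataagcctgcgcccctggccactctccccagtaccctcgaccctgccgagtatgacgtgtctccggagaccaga

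The fourth set shows copies with enough differences that no stretch of 100 bases, the length of a read, is the same as in another gene. *Gm6548* is a copy of *Eef1a1*, the elongation factor that brings aminoacyl-tRNA to the ribosome, and its stretch at chr17:78851817-78851936 on the minus strand has 4 differences in 120 bases. The *Eef1a1* stretch joins exon 3 to exon 4 at chr9:78480111-78480322 on the minus strand. *Gm14276* is a more diverged copy, of *Rps2*, a protein of the small ribosomal subunit, and its stretch at chr2:156994273-156994392 on the minus strand has 17 differences in 120 bases. The *Rps2* stretch joins exon 3 to exon 4 at chr17:24721246-24721685 on the plus strand. No other gene overlaps *Gm6548* or *Gm14276*.
Eef1a1: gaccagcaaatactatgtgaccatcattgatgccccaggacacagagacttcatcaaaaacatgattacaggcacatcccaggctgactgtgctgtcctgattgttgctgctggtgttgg
Gm6548: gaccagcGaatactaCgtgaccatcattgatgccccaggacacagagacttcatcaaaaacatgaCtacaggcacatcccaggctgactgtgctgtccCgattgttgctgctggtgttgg
Rps2: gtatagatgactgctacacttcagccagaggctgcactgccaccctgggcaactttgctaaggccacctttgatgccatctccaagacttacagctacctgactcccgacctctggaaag
Gm14276: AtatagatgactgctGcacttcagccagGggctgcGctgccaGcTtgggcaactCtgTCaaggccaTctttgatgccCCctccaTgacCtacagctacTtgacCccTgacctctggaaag

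The annotation of the copies is that of spliced insertions. Of the 158 pseudogenes, 156 had a single exon, *Gm6206* had 2 and *Gm7353* had 3. Among the 156 with a single exon, 150 ran through at least 1 exon junction of the closest protein-coding transcript, with a median of 4 junctions and a highest of 16. Exon lengths ranged from 192 to 2866 bases, with a median of 632. Of the 158, 98 overlapped no other gene, 21 lay in an intron of a gene on the same strand, 32 in an intron of a gene on the opposite strand, 8 overlapped an exon on the opposite strand and 2 an exon on the same strand, some in several of these places. In 13 cases, copy and parent were on the same chromosome.

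The parent was taken as the protein-coding gene whose transcript gave the best blastn score on the strand of the copy. The name gave a parent with a row of its own, as *Rpl31-ps8* gives *Rpl31*, for 31 of the 158, and it was the gene found by sequence in 31 of 31. Most of the others, 119, are named by Gm and a number. The 158 copies came from 140 parents, of which 14 had 2 or more copies at this level. *Gapdh* had 5 and *Rpl17* had 3. For *Gm10182*, *Gm10108*, *Gm3272* and *Gm13717*, the closest protein-coding transcript itself had a single exon and a Gm name, so that it may not be the original source. *Gm4735* and *Gm1821* ran through 0 exon junctions of *Eno1b* and *Ubb*, whose closest transcripts have 2 exons. The alignment therefore does not show whether these genes were the sources.

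Most copies were close to identical to their parent. The median identity was 99.7% (lowest 69.2%, *Gm17893*), 117 of 158 were at 99% or more, and 47 had no difference at all over the aligned bases. A window of 100 bases, the length of a read, was called shared if it occurs without a mismatch in a transcript of another gene. All windows were shared in 48 of 158 copies and no window in 6. Between these ends, 29 copies shared over 80% of their windows, 51 shared over 50% and up to 80%, and 24 shared up to 50%. Of the processed pseudogenes below the level of 10 that are in M21, 1341 in all, 1338 were long enough for a window. All windows were shared in 50 of these (3.74%), against 30.4% of the 158, and none in 365 (27.3%), against 3.80%. The median identity of those below the level was 96.6%. Whether sharing raises the level through reads of the parent was not tested.

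All levels below rest on 2 group means that the authors list, or on counts of single libraries derived from them. The means were printed with many digits, enough to search for the whole counts of the 5 libraries that give them. Counts were recovered in both genotypes for 156 of the 158, and for 150 of these only 1 set of counts gives the mean. *Gm7536* and *Gm11518*, with means over 1000, are given by group means only. Libraries are numbered 1 to 5 within a genotype by falling size factor, and these are not the replicate numbers of the labels. The estimated depth was 11328000 to 14023000 read pairs per library. As a check of the labels, *Nos1ap* had normalized counts of 147, 133, 126, 161 and 153 in wild type and 42.3, 42.2, 44.4, 31.1 and 39.2 in null (limma log2 fold change −1.83, adjusted p = 1.24e-08). All 8 cardiomyocyte markers were present, the lowest of them *Nkx2-5* at 1688 in wild type and 1648 in null. Wild-type library 3 stood apart by neuronal genes: *Stmn2* was at 575 there and at 33.1 to 37.8 in the other 4 wild-type libraries, and *Tubb3* at 906 against 47.8 to 98.3. The summed group means of these 2 neuronal markers had a log2 ratio of null to wild type of −1.93, and of −0.13 without library 3. The ratio was 0.39 for 4 erythroid markers, −0.97 for 4 hepatocyte markers at sums of 40.2 and 20.6, 0.04 for 3 endothelial and 0.11 for 3 epicardial markers. Among the hepatocyte markers it was −1.34 for *Afp*, −1.29 for *Alb*, −0.37 for *Ttr* and −0.02 for *Apoa1*. *Afp* was at 49.4 and 36.1 in wild-type libraries 2 and 4 and at 2.04 to 13.4 in the other wild-type libraries. Of 3 markers of lung epithelium, *Sox2* was in the table, at 7.88 and 3.32. It was at 25.4 in wild-type library 3 and at 1.74 to 7.24 in the other 4 wild-type libraries. The part of these markers in the values below was not tested.

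The 158 copies held 0.111% of all normalized counts, a sum of 13593. Their median level was 36.0, 47 were below 20, 79 were between 20 and 100, and 32 were at 100 or more. The 10 highest held 40.9% of the sum. *Gm7536*, a copy of *Rpl27a* inside an intron of *Naaladl2* on the opposite strand, had group means of 1230 in wild type and 1130 in null. *Gm11518*, a copy of *Rpl27*, had 1110 and 1080. Next came *Gm3244* (*Ndufb4*) at 623 ± 33.0 in wild type and 624 ± 38.0 in null (SD, n = 5 each). *Gm12481*, a copy of the small protein gene *Serf2*, was at 516 ± 30.2 and 489 ± 55.6. These 4 copies had no base that differed from the parent. The others of the 10 highest were copies of *Rpl31*, *Rpl15*, *Pgk1*, *Ppia*, *Hnrnpk* and *Atp5l*, at means of 272 to 457. *Gm7964*, the copy of the RNA-binding protein gene *Hnrnpk*, was the only one of the 10 with less than all windows shared (52.9%).

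Just inside the threshold were *Gm13717*, *Gm6505* and *Gm5526*, at means of 10.09, 10.49 and 10.59, and just outside *Gm3362*, *Pabpc1l2b-ps* and *Rpl34-ps1*, at 9.97, 9.96 and 9.90. The order of these 6 is within the spread of their libraries. *Gm5526*, for example, had counts of 11, 7, 9, 13 and 3 in wild type and of 11, 33, 11, 5 and 4 in null.

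**Figure D1:**
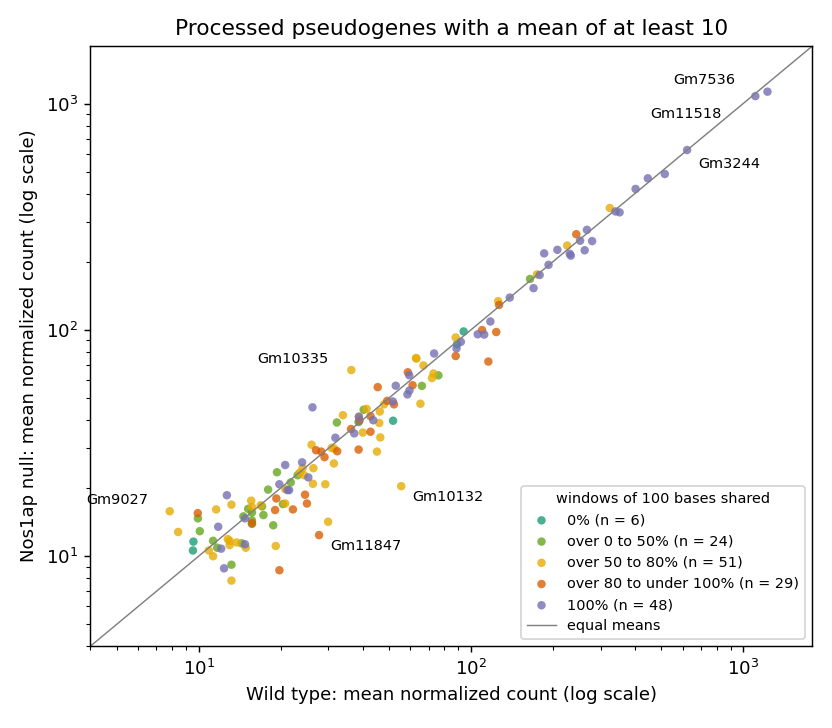
Mean normalized count of 158 processed pseudogenes in wild type (x axis) and *Nos1ap* null (y axis), both on a log scale, coloured by the share of 100-base windows found in another gene's transcript, with the line of equal means. Most points lie along the line, and the farthest from it, such as *Gm10132* (55.5 and 20.4) and *Gm10335* (36.4 and 66.5), have means under 100.

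Grouped by the family of the parent, the largest group copied cytosolic ribosomal proteins, with 46 copies from 39 parents and 41.4% of the summed level. Copies of other parents outside the lists numbered 47 (16.6% of the sum), among them copies of the glycolytic genes *Eno1b* and *Gpi1*. There were 10 copies of translation factor genes, 10 of chromatin and nuclear proteins, 9 of the respiratory chain and mitochondria, 9 of chaperones, 8 of the listed glycolytic genes, 8 of RNA-binding and splicing proteins, 6 of the cytoskeleton and 5 of the proteasome and ubiquitin system. The median level was highest among copies of glycolytic genes and lowest among those of the cytoskeleton (21.3). Copies of mitochondrial and of proteasome and ubiquitin genes shared a median of 100% of their windows, and those of RNA-binding proteins 62.3%.

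None of the 156 copies with recovered counts passed an FDR of 5% between genotypes. Limma, run on log2 values after 1 was added to each normalized count, called 0 of 156 copies and 3 of 11275 genes (0.0266%) with Benjamini-Hochberg adjustment over all genes tested, and *Nos1ap* was among the 3. The same counts were found at an FDR of 10%. The voom form of limma also called 0 of 156 copies. At an unadjusted p under 0.05, limma gave 6 of 156 copies (3.85%), beside 3.65% of all genes tested. Of these, 3 copies were higher in null (1.92%, beside 1.7% of all genes) and 3 lower (1.92%, beside 1.94%). The null libraries did not overlap the wild-type libraries for 1 copy (0.641%), beside 0.789% of all genes tested. It was lower in null, a direction found without overlap in 0.373% of all genes tested.

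The copy with the smallest limma p and the copy with the largest ratio of group means were both copies of *Rpl23a*, and they differed in opposite directions. *Gm10335* had normalized counts of 32.2, 57.1, 26.5, 44.4 and 21.7 in wild type and of 91.8, 56.3, 52.4, 68.7 and 63.2 in null. Its mean was 36.4 ± 14.4 in wild type and 66.5 ± 15.5 in null (SD, n = 5 each; limma log2 fold change 0.91, SE 0.23, adjusted p = 0.926; exact two-sided permutation p = 0.0238, unadjusted), and wild-type library 2 lay within the range of the null libraries. *Gm10132* had 61.8, 52.3, 44.8, 47.5 and 71.4 in wild type and 0, 43.2, 25.2, 0 and 33.8 in null. Its mean was 55.5 ± 11.0 in wild type and 20.4 ± 19.7 in null (limma adjusted p = 0.998), and all 5 null libraries were below all 5 wild-type libraries, which gives the smallest p that 5 against 5 allows (exact two-sided permutation p = 0.00794, unadjusted). The sum of both copies was 91.9 ± 13.6 in wild type and 86.9 ± 13.2 in null, a log2 ratio of −0.08. In null libraries 1 and 4, where *Gm10132* had 0 counts, *Gm10335* alone was at 91.8 and 68.7. The sum in the other 3 null libraries ranged from 77.6 to 99.5. As printed above, the copies differ from *Rpl23a* at positions only 2 bases apart, and 72.9% of the windows of each are shared.

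**Figure D2:**
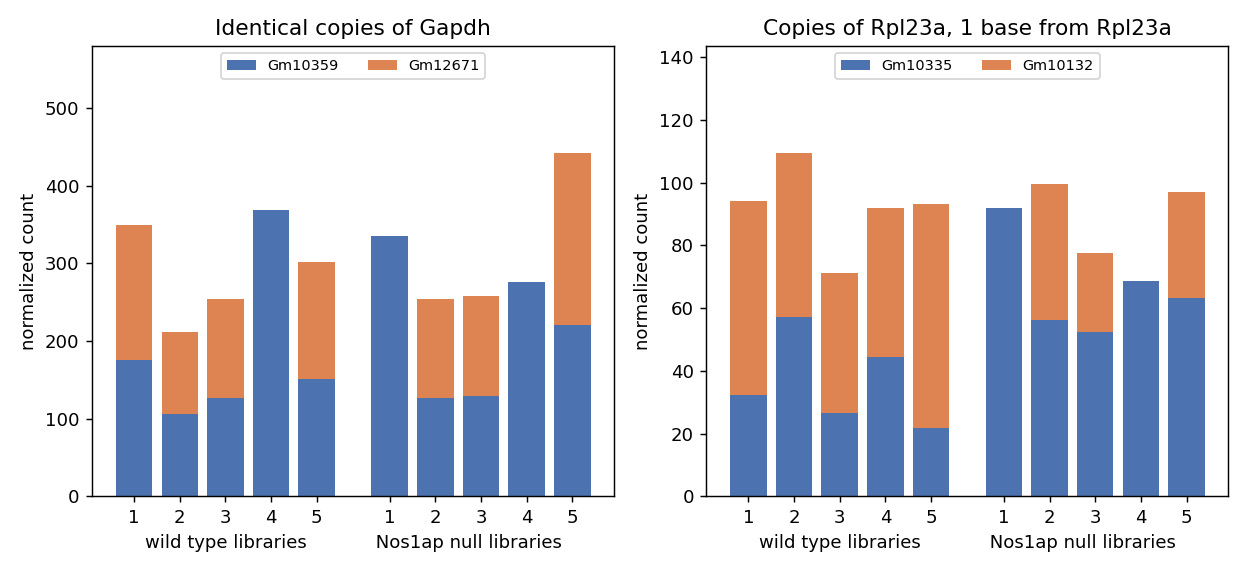
Normalized count (linear axis from 0) of each library for 2 pairs of copies, stacked: left, *Gm10359* and *Gm12671*, which are identical to *Gapdh* over 1002 bases; right, *Gm10335* and *Gm10132*, each 1 base from *Rpl23a* over 468 bases. *Gm12671* is at 0 in wild-type library 4 and null libraries 1 and 4, and *Gm10132* in null libraries 1 and 4, while the stacked sums of the *Rpl23a* copies range from 68.7 to 109 in all libraries.

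In the other copies with the smallest limma p, the genotypes overlapped. *Gm11847*, a copy of the splicing regulator gene *Hnrnpa3*, had 16.5, 23.2, 30.5, 39.2 and 29.0 in wild type and 20.7, 8.04, 5.04, 8.59 and 19.6 in null. The ranges overlapped by null libraries 1 and 5 (limma log2 fold change −1.22, SE 0.34, adjusted p = 0.998; exact permutation p = 0.0317, unadjusted). *Gm14276*, the *Rps2* copy with no shared window, had 53.9, 42.6, 47.8, 52.6 and 62.1 in wild type and 45.0, 36.2, 34.3, 44.0 and 39.2 in null (limma log2 fold change −0.37, SE 0.14, adjusted p = 0.998; exact permutation p = 0.0238, unadjusted). Only wild-type library 2 fell within the range of the null libraries. *Gm9027*, a copy of *Sinhcaf*, whose product belongs to the SIN3-HDAC complex, had a mean of 7.83 ± 2.40 in wild type and 15.8 ± 8.17 in null, and null library 4 was highest at 29.0. *Gm3272* had 9.93 ± 3.10 and 15.5 ± 3.08. *Gm6158*, a copy of the deadenylase scaffold gene *Cnot1*, had 65.3 ± 17.1 and 47.2 ± 13.9. *Gm14681* (*Npm1*), *Gm8355* (*Hspa8*) and *Gm6206* (*Cop1*) were lower in the null mean, with log2 ratios of −0.49, −0.27 and −0.64. The adjusted limma p of these 6 was 0.998 each.

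Ratios of the group means spread wider for the copies than for other genes. The absolute log2 ratio was over 0.5 for 17 of 158 copies (10.8%), beside 2.6% of the 14330 genes at this level and 2.4% of protein-coding genes. The number was 14 to 28 when single libraries were left out, and 28 without null library 5. The shares above are not matched for level. Median levels were 35.7 in the 156 copies with recovered counts and 226 in the 10276 protein-coding genes tested. The ratio ranged from −1.44 (*Gm10132*) to 1.01 (*Gm9027*). Among the 10 largest were copies with libraries at 0. *Gm6344*, a copy of *Rpl29*, had 33.1, 9.68, 18.3, 38.2 and 0 in wild type and 6.30, 12.1, 0, 5.37 and 19.6 in null. *Gm13092*, a copy of the core spliceosomal gene *Snrpf*, had 24.4, 21.3, 23.4, 37.2 and 43.5 in wild type and 0, 31.2, 2.02, 29.0 and 8.71 in null. *Gm10163*, a copy of *Rpl21*, had 0, 56.1, 47.8, 0 and 26.9 in wild type and 51.3, 65.4, 20.2, 40.8 and 50.1 in null. The genotypes overlapped in all 3. *Gm10108* had a log2 ratio of −0.79, *Gm6505*, a copy of *Yae1d1*, −0.76, and *Gm12070*, the *Gapdh* copy, −0.68. The limma log2 fold changes of such copies rested on single libraries. That of *Gm6505* was −0.67 with all libraries, −1.49 without wild-type library 3 and −0.02 without null library 1. That of *Gm10108* was −1.14 with all libraries, −1.90 without wild-type library 3 and −0.63 without wild-type library 2. That of *Gm6344* was −0.89 with all libraries, −1.80 without wild-type library 5 and −0.21 without null library 3.

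Over the whole list, 96 of 158 copies had a lower mean in null and 62 a higher one, with a median log2 ratio of −0.05 and quartiles of −0.19 and 0.08. Among all genes at this level the median was −0.0013 and 49.4% were higher in null, and 39.2% of the copies were. The count depended on single libraries. Of the 156 with recovered counts, 94 were lower in null, 80 without wild-type library 1, 84 without wild-type library 4 and 104 without wild-type library 3, and the median ranged from −0.10 to −0.01. Copies of ribosomal protein genes had a median of −0.10, with 32 of 46 lower. Of the 44 with recovered counts, 30 were lower, and 18 were lower without wild-type library 1, with the median then at 0.07.

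The spread between libraries of 1 genotype was large for the copies. It is given as the variance of the normalized counts within genotype divided by their mean, which is about 1 where counting error is the only source. The median was 3.13 over 156 copies (quartiles 1.85 and 5.73) and 1.56 over 10276 protein-coding genes tested (quartiles 0.999 and 2.48). A ratio over 5 was found in 50 of 156 copies (32.1%) and in 7.04% of protein-coding genes. Medians were higher for the copies at each level. At means of 10 to 20 the median was 2.37 for the copies and 1.37 for protein-coding genes, at 20 to 50 it was 2.66 and 1.44, at 50 to 200 it was 4.47 and 1.45, and at 200 to 1000 it was 3.98 and 1.67. In the highest of these classes many means allow several sets of counts, of which the most even was taken. With genes for which only 1 set is possible, the median there was 14.6 in 11 copies and 1.48 in 1078 protein-coding genes, and the classes below were the same.

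The spread was larger in classes with more windows found in other genes. The median ratio was 1.12 in the 6 copies with no shared window, 1.63 in 24 with up to 50%, 3.07 in 51 with over 50% and up to 80%, 4.05 in 29 with over 80% and under 100%, and 4.27 in 46 with all windows shared. The median level of these classes was 42.4, 16.2, 28.5, 36.4 and 80.9, so that the classes differ in level too. Across the 156 copies the Spearman correlation of the ratio with the share of windows was 0.46, and with the level 0.31. The points are not independent, as copies of 1 parent share sequence and all copies share the libraries.

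**Figure D3:**
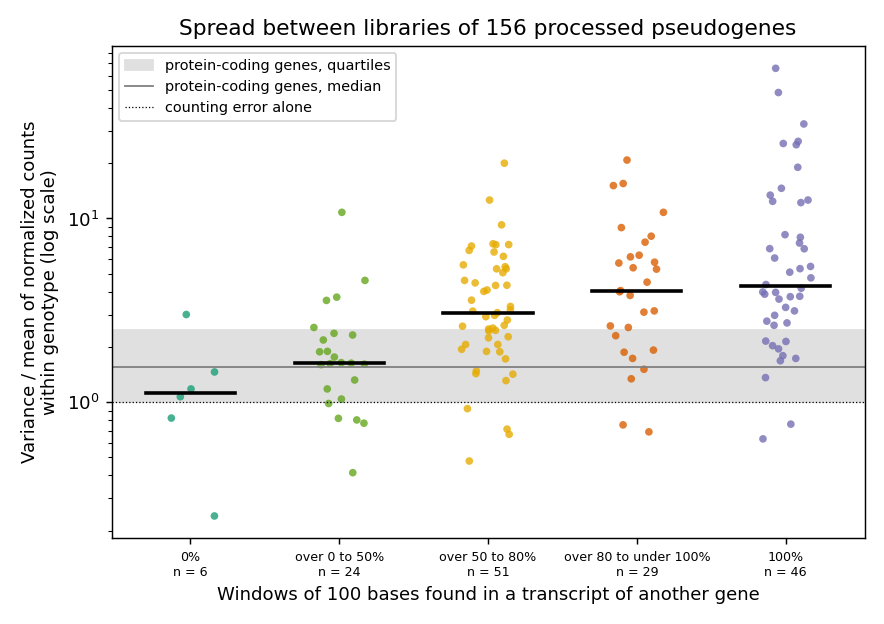
Variance divided by mean of the normalized counts within genotype (log axis) for 156 processed pseudogenes, in classes by the share of 100-base windows found in another gene's transcript. Thick lines are class medians, 1.12 to 4.27 from left to right, the grey band and line give the quartiles and median of protein-coding genes (0.999, 2.48 and 1.56), and the dotted line marks a ratio of 1.

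The 5 copies with the largest ratio all had no difference from their parent. *Gm12671* and *Gm10359*, the identical copies of *Gapdh*, had ratios of 65.7 and 48.5. Their read counts were equal in 7 of 10 libraries, at 201, 109, 125 and 146 each in wild-type libraries 1, 2, 3 and 5 and at 126, 128 and 203 each in null libraries 2, 3 and 5. In the remaining 3 libraries, *Gm12671* had 0 and *Gm10359* had 358 (wild type 4), 372 (null 1) and 257 (null 4). Their sum had a ratio of 17.4, and its mean was 297 ± 65.7 normalized counts in wild type and 313 ± 79.2 in null. Over all 5 copies of *Gapdh*, the summed level was 672 ± 86.1 in wild type and 666 ± 85.7 in null, and the variance of the sum was 0.336 times the sum of the 5 variances. *Gm12070*, 1 base from *Gapdh*, had 93.1, 109, 124, 57.8 and 198 in wild type and 65.7, 79.4, 90.7, 54.8 and 71.9 in null, and wild-type library 5 was its highest.

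*Rps6-ps4*, a copy of *Rps6* of the small ribosomal subunit, had a ratio of 32.7. Its values were 357, 166, 154, 289 and 202 in wild type and 160, 158, 214, 175 and 357 in null, with the highest value in 1 library of each genotype. *Gm10233*, a copy of the mitochondrial import gene *Timm23*, had a ratio of 26.3, from 52.9 in wild-type library 3 against 0, 0, 0 and 9.31 in the other wild-type libraries and 0 to 14.0 in null. Without wild-type library 3 its wild-type mean would rest on 1 library above 0. *Gm10171*, which is identical to *Gm10233* over 628 bases, had 12.2, 31.0, 10.2, 25.8 and 19.7 in wild type and 15.1 to 29.0 in null, and the counts of these identical copies were equal in 0 of 10 libraries. *Tpt1-ps3*, a copy of the gene for the translationally controlled tumor protein, had a ratio of 25.6, with values of 133 to 362 in wild type and 165 to 311 in null.

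The 5 copies with the smallest ratio were *AA414768*, *Snrpert*, *Gm5812*, *Gm16199* and *Gm11223*. *AA414768*, which had no shared window and only 83.9% identity to its closest gene, had 36.5, 38.7, 37.7, 36.1 and 44.5 in wild type and 36.9, 42.2, 40.3, 40.8 and 35.9 in null, a ratio of 0.24. *Snrpert*, a copy of the spliceosomal gene *Snrpe* with 43.3% of windows shared, was at 32.2 ± 4.05 and 39.0 ± 3.60. *Gm16199* had a small ratio although all its windows are found in *Cop1*, the gene of a ubiquitin ligase, and its values were 33.9 to 44.4 in wild type and 34.2 to 47.3 in null. *Gm5812*, a copy of the nucleolar methyltransferase gene *Fbl*, was at 11.6 ± 1.24 and 16.1 ± 3.42, and *Gm11223*, a copy of *Stmn1*, at 13.8 ± 2.60 and 11.5 ± 3.18.

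Libraries without a single count occurred in 14 of 156 copies (8.97%) and in 27 of 10276 protein-coding genes tested (0.263%). These shares are not matched for level, as the median level was 35.7 in the copies and 226 in the protein-coding genes. They therefore do not separate the type of gene from its level. *Gm4294*, which differs by 1 base from *Rpl15*, had counts of 0 in wild-type library 2 and null library 2, while its normalized counts were 46.6 to 90.7 in the other 8 libraries. A library at 0 allows up to 3 counts, as far as counting error goes. In 14 families in which 2 or more copies of 1 parent had recovered counts, the variance of the summed copies was below the sum of their variances in 6 (lowest 0.336, *Gapdh*, and 0.377, *Rpl23a*) and above it in 8 (highest 1.71, *Rplp0*).

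The 6 copies with no shared window had levels of 10.1 to 96.3. *Gm6548*, the *Eef1a1* copy, had 110, 92.0, 92.6, 96.0 and 79.7 in wild type and up to 115 in null, and the genotypes overlapped. *Gm16574* had 89.0 ± 12.2 and 86.5 ± 10.4, and it lies on the same strand in an intron of *Airn*, a long noncoding RNA of the imprinted *Igf2r* region, whose mean was 226. *Gm14276* and *AA414768* are given above. *Gm17893*, in an intron of *Rabgap1*, and *Gm13717*, in an intron of *Smo*, both on the same strand, had means over all libraries just above 10. For copies within introns on the same strand, reads of the unspliced host transcript cannot be told apart from reads of the copy.

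Most copies were far below their parent gene per length. A parent had a row in the table for 156 of 158 copies, and the level of the copy per kilobase of exon was a median of 0.0511 times that of the parent, with quartiles of 0.0166 and 0.204. The copy was under 0.1 times the parent in 102 cases and above it in 13. The length of a parent covers the exons of all its transcripts, whereas 116 of the 158 copies span the whole coding sequence of the parent transcript, so that a parent with long untranslated exons has a lower level per kilobase. The highest ratio was 14.0, for *Gm3244* at 1600 normalized counts per kilobase and *Ndufb4* at 115. In counts, *Gm3244* was at 567 to 667 in all 10 libraries and *Ndufb4* at 201 to 242, and the ranges did not overlap. *Gm4735*, a copy of an enolase gene, was at 3.67 times *Eno1b*, which may not be its source. *Gm10221* was at 3.37 times *Atp5l*, a subunit of ATP synthase. *Mrpl23-ps1* was at 3.25 times *Mrpl23* of the mitochondrial ribosome, and *Gm11518* at 2.96 times *Rpl27*. The lowest was 0.00138, for *Gm13456* and *Eef1a1*. The Spearman correlation of the level of the copy was 0.24 with the level of its parent over 156 pairs and 0.44 with the share of windows over 158 copies.

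**Figure D4:**
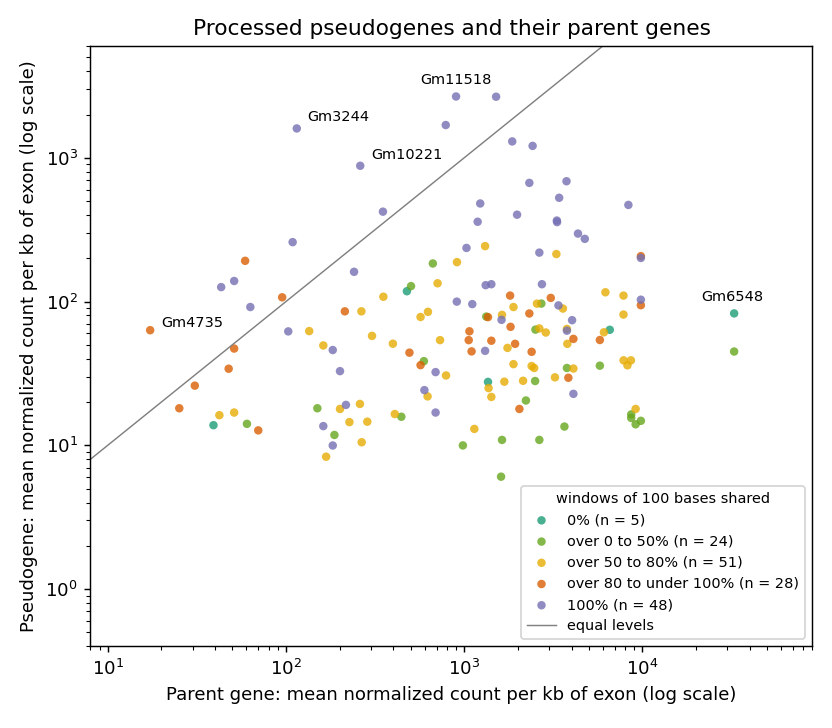
Mean normalized count per kilobase of exon of 156 processed pseudogenes (y axis) against that of the parent gene found by sequence (x axis), both on a log scale, coloured by the share of 100-base windows found in another gene's transcript, with the line of equal levels. Of the 156 points, 13 lie above the line, *Gm3244* farthest at 14.0 times *Ndufb4*.

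Counts of single libraries were searched only for means below 1000, which leaves out parents above that level. In 32 pairs, counts of single libraries were recovered for both the copy and the parent. The highest parent mean was 954 (*Fbl*), and no parent in these pairs was a cytosolic ribosomal protein gene, so the values do not cover such copies. The correlation of their log2 values within genotype over 10 libraries was below 0 in 21 pairs and above 0 in 11, with a median of −0.11 and a range from −0.85 to 0.65. The lowest was that of *Gm7353* and *Zc3h3*, a zinc finger gene of polyA RNA export. For this pair the variance to mean ratio was 1.73 for the copy and 1.69 for the parent, and 0.692 for their sum. Next were *Gm44911* and *Cplane1* (−0.77), for which the ratio of the sum was 0.526, and *Gm13092* and *Snrpf* (−0.64). The highest was that of *Gm4735* and *Eno1b*, which may not be its source. In the 11 pairs with all windows shared the median was −0.05, with 7 below 0, and in the 4 pairs with up to 50% shared it was −0.30, with 3 below 0.

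The copies as a list were shifted in some libraries. The median difference from the mean of the same genotype, over 156 copies on the log2 scale, was 0.18, −0.02, −0.21, 0.19 and −0.05 in wild-type libraries 1 to 5 and −0.04, 0.10, −0.08, −0.06 and 0.21 in null libraries 1 to 5. That of protein-coding genes was within 0.02 of 0 in each. Division by size factors centres the bulk of genes in each library, so this was largely set by the normalization. In wild-type library 4, 112 of 156 copies (71.8%) were above their genotype mean, and in wild-type library 3, 48 (30.8%) were, where protein-coding genes gave 49.2% and 54.3%. Library 3 was also the one with the neuronal genes. The shift was larger in the 44 copies with ribosomal parents, at 0.49 in wild-type library 1 and −0.35 in library 3, than in the other 112, at 0.07 and −0.17. Summed over 156 copies, the share of the read pairs of a library was 0.0940% ± 0.00891 in wild type and 0.0905% ± 0.00709 in null (SD, n = 5 each), with a lowest of 0.0826% and a highest of 0.103%.

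**Figure D5:**
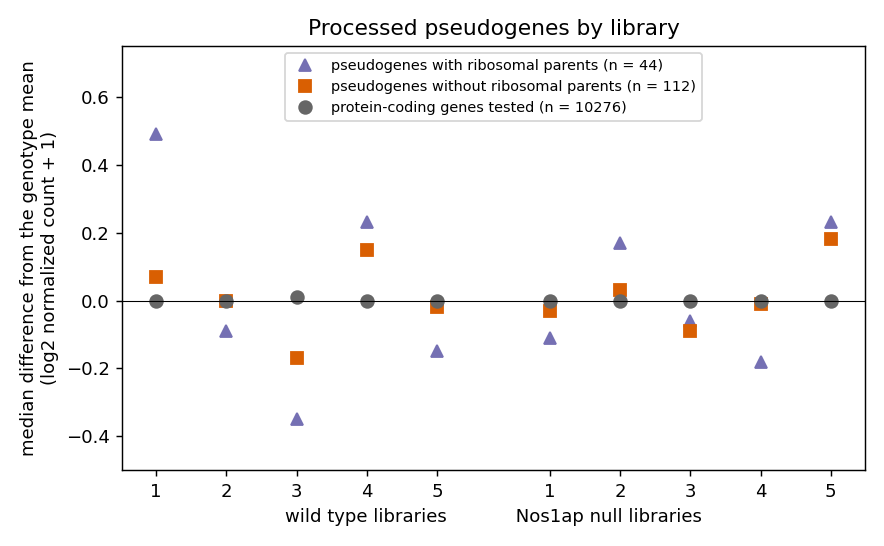
Median difference from the genotype mean (y axis, log2 of the normalized count plus 1) in each of 5 wild-type and 5 *Nos1ap* null libraries (x axis) for 44 pseudogenes with ribosomal parents (triangles), the other 112 (squares) and 10276 protein-coding genes (circles). Protein-coding genes lie within 0.02 of 0, which the size factors largely set, and the pseudogenes range from −0.35 to 0.49.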

How the data were processed

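PolyA RNA libraries of embryonic day 13.5 hearts from 5 wild-type and 5 *Nos1ap* null males were grouped by the genotype in their labels. According to the submitters' processing notes, the authors checked reads with FastQC 0.11.5, trimmed them with Trimmomatic 0.36, aligned them with STAR within RSEM 1.2.31 to GENCODE M10 transcripts of GRCm38, and compared gene-level counts with DESeq 1.24.0. The deposited table gives, per gene, signal values that the authors made by averaging the counts of each genotype after division by size factors. Fold changes and p-values of the authors' own comparison are in the table too and were not used.

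Means below 1000 were searched for the 5 whole counts behind them, over all possible sets below 500. Where several sets fitted below 500, the one with the most even libraries was taken if the next was at least 2 times less even. Otherwise, and from 500 up, the most even set was taken if it lay within a fixed distance of equal normalized counts. Counts of *Gm3244* in both genotypes and of *Gm12481* in wild type were settled in this second way. Both ways favour a small spread. How RSEM estimates became whole numbers is not given in the sources used here. The search for counts and limma were each tested on simulated data. The estimated depth of 11328000 to 14023000 read pairs bounds the precision, and intervals for counting error would not cover the division of shared reads. Genes of every type with a mean of at least 10 and recovered counts (11275) were compared by limma 3.58.1 (R 4.3.3), with trended and robust moderation, on log2 of the normalized count plus 1. Replicates are separate libraries, and p-values measure only the spread between them. Single genes were compared by a two-sided exact permutation test over 252 arrangements. Annotation and transcripts of GENCODE M21 on GRCm38 served for positions, blastn 2.17.0+ and windows, and all 158 pseudogenes matched by gene ID. The members and lists were chosen with earlier results of these data known. Named are the 10 with the highest mean, the smallest limma p or the largest ratio, the 5 with the most and the least spread, those next to the threshold, those with the fewest shared windows, name-given parents, and further examples chosen after their values were seen. Alternatives changed the pseudocount, the form of limma, the mean required, the centring, the sets of counts, the FDR, the libraries, the window length and the parent rule. Cell type markers covered cardiomyocytes, erythroid cells, hepatocytes, lung epithelium, neurons, endothelium and epicardium, and 1 further marker is not reported here.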

Additional observations from a re-analysis of the deposited data

Results flagged for a closer look

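In 37 genes for which single libraries were compared, each group of 5 libraries was searched for 1 library far from the other 4, where the gap to the nearest is over 0.71 of the range. This was found in 8 of 74 groups. Chance gives about 1 in 20 in genes that were not selected, and since many of these genes were named for their spread or difference, the 2 shares cannot be compared. Among the pseudogenes, *Gm10221* was at 350 in null library 5 (others 250 to 278), *Rps6-ps4* at 357 in null library 5 (others 158 to 214), *Gm10359* at 369 in wild-type library 4 (others 106 to 175), *Gm8355* at 101 in wild-type library 4 (others 67.2 to 71.4), *Gm11223* at 9.31 in wild-type library 5 (others 14.3 to 15.7) and *Gm10233* at 52.9 in wild-type library 3 (others 0 to 9.31). Null library 5 and wild-type library 4 were also the libraries with the highest medians over all copies. The neuronal genes *Stmn2* (575) and *Tubb3* (906) were far above the other wild-type libraries in library 3.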

How the results depend on the processing

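No paired analysis was possible because the group means carry no replicate numbers. In each alternative that kept the level of 10 or raised it to 50, at an FDR of 10% and without each library in turn, 0 of the tested copies were called. The range without single libraries was 0 to 0. With the level lowered to 1, 701 processed pseudogenes were tested and 1 was called, *Gm10243*, which is below the level of the list (mean 5.13; counts of 6, 23, 5, 7 and 8 in wild type and of 0, 0, 0, 0 and 3 in null; limma adjusted p = 0.0493); the members called remained at 0. The 16 copies whose fold change was tested, chosen for the smallest p or largest ratio in these data, kept their direction in 260 of 260 alternative values. Part of these could not differ, as the FDR, the mean required and the restriction to 1 possible set leave the values of a copy unchanged. The sizes did change: without single libraries, *Gm6505* ranged from −1.49 to −0.02, *Gm6344* from −1.80 to −0.21 and *Gm10108* from −2.0 to −0.63. The smallest adjusted p among them was 0.129, for *Gm10335* without wild-type library 2. The share of read pairs rose from 0.0922% to 0.110% when all 1513 processed pseudogenes with recovered counts were summed. The median log2 ratio of the list was −0.08, −0.04 and −0.03 at levels of 5, 20 and 50. The median variance to mean ratio ranged from 2.72 to 3.41 without single libraries, and was 3.11 in the 150 copies with only 1 possible set of counts, an alternative chosen after seeing the data. All windows were shared in 49 copies at 50 bases and in 46 of 157 at 200 bases. Parents by name gave a median ratio of 0.0563. The restriction to group means below 200 was run as a restriction to means with only 1 possible set of counts.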

Other observations

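*Gm10243*, a copy of *Rpl35a* with all windows shared, lay below the level of 10 and was named after its values were seen. Its wild-type mean was 9.61 ± 7.20 and its null mean 0.653 ± 1.46 (SD, n = 5 each), with 4 null libraries at 0. Among the copies with a library at 0, *Gm10108* had 5 such libraries, 2 in wild type and 3 in null, and its highest count was 39. Of the 158 copies, 12 were on the X chromosome and 0 on the Y chromosome.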
